A study of Mus musculus with 4 samples.

Results

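The comparison described here is that of wild-type (WT) embryoid bodies (EBs) with the WT embryonic stem cells (ESCs) of the same mouse study, measured by ribosome profiling with 1 library of each. Genes were chosen by 1 rule: the coding sequences of a gene were summed, and autosomal genes with a mean normalised count of at least 25 over the study's 4 libraries were compared. That left 9265 of 20716 genes; of the 9670 that passed the mean filter, 336 on the X or Y chromosome and 69 without a position were set aside. The other 2 libraries came from Mettl3 knockout (KO) ESCs and EBs, and they entered the filter and the closing comparison of this text. All 4 groups were on the C57BL/6 strain. The WT ESCs were kept naive in serum-free N2B27 medium with LIF and 2 inhibitors, CHIR99021 against GSK3 at 1 to 3 µM and PD0325901 against MEK at 1 µM. The EBs were suspended aggregates of such cells on non-adherent plates, in medium with 15% serum whose description lists none of those 3 supplements, for 8 to 21 days. Which day each was taken on is not known here, so time in culture, serum and the loss of LIF and inhibitors cannot be told apart. Each group was a single library without a replicate, and no difference between the pair has a replicate check or a p-value.

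Ribosome profiling sequences the stretches of mRNA that translating ribosomes protect from nuclease, so a gene's count follows both its amount of mRNA and how densely ribosomes sit on it. When mouse ESCs aggregate and leave naive medium, the outer cells commonly form primitive endoderm, which gives rise to parietal endoderm, a maker of thick basement membrane, and to visceral endoderm, an absorptive and secretory epithelium. Visceral endoderm takes up maternal nutrients through receptors on its apical surface and secretes the lipoproteins and plasma proteins that the liver makes later. The inner cells can pass through a formative state into germ layers. In bulk cultures such as these, fewer cells of a type and less RNA per cell cannot be told apart, which holds for every value below.

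Genes held 8570204 reads in the WT ESC library and 4234361 in the WT EB library. After the authors' scaling 1 read came to 0.778 in WT ESCs and 1.56 in WT EBs, and 3 reads, from which a fold against 0 reads is given as a bound, to 2.34 and 4.68. A fold over 1 to 3 reads is given with its counting interval instead. Values are normalised footprint counts, given for WT ESCs first, and log2 folds are those of value + 1, EB over ESC, which understates the change of low genes. Intervals after a fold are 95% counting intervals of the ratio of the 2 libraries. Neither these nor the bounds hold any error but that of counting, and PCR copies can make them too narrow. Pluripotency genes were high in the library labelled ESC, where Nanog stood at 6105, Sox2 at 3859 and Pou5f1 at 2860.4. The EB library still held them, with Nanog at 3691, Sox2 at 3067 and Pou5f1 at 1493, so messages of the pluripotent kind were present in both.

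Over all genes the centre of the comparison lay near 0: the median log2 fold was −0.02, and the quartiles lay at −0.36 and 0.38. At least 2-fold higher in EBs were 1006 genes (10.9% of those compared), and at least 2-fold lower 720 (7.77%). The upper side reached further. There were 415 genes at least 4-fold higher (4.48%) against 241 at least 4-fold lower (2.60%), 125 (1.35%) against 27 (0.291%) at 16-fold, and 29 (0.313%) against 1 (0.0108%) at 100-fold. Of the higher genes, 999 of the 1006 had an interval wholly above 1 and 654 one wholly above 2, while 711 of the 720 lower genes had an interval below 1 and 366 below 1/2. The 1006 genes took 1.83% of gene values in WT ESCs and 8.43% in WT EBs, and the 720 went from 4.26% to 1.46%. A gene that is low in ESCs can pass the filter on the mean through its EB value alone and then has to be higher: 219 of the 1006 did, and 111 of the 720 passed only with their ESC value, so counts and medians over members that passed are descriptions. A gene listed at 0 is also not shown to be untranslated. Of the table's genes with 1 entry, 25.2% had no read in either WT library, against 69.9% of those with 2 or more, whose overlapping entries lose reads as ambiguous. Calls were most frequent among weakly translated genes. Split into 5 equal bins by mean level, 408 of 1853 were higher and 327 lower in the lowest bin, and 3.02% and 3.02% of genes in the highest.

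**Figure D1:**
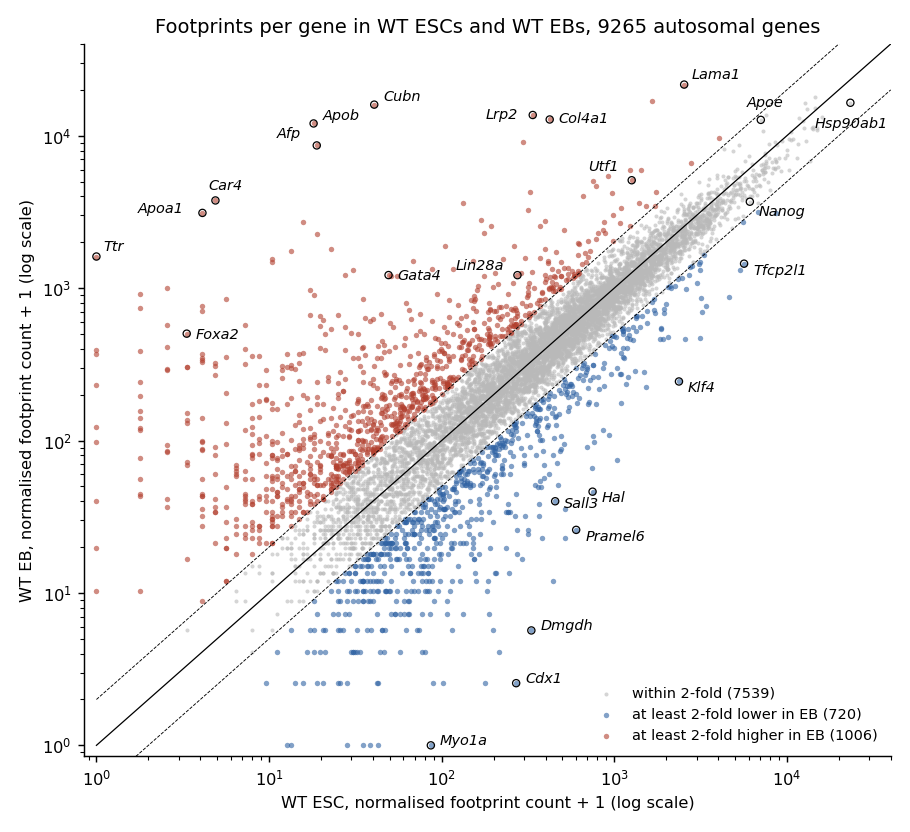
Each point is 1 of the 9265 genes, with its normalised footprint count + 1 in WT ESCs on the x axis and in WT EBs on the y axis, both on log scales; the solid line marks equal values and the dashed lines 2-fold. Red points (1006) lie at least 2-fold higher and blue points (720) at least 2-fold lower in EBs. Apob, Cubn and Afp have high counts in EBs and low ones in ESCs. Counts are not corrected for coding length, and per kb these genes held 891, 1472 and 4751 in EBs.

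The 20 highest log2 folds of genes that reached 100 in ESCs or EBs included those of apolipoproteins, plasma proteins, apical receptors and membrane proteases, known from visceral endoderm, liver and gut. Apob, the structural protein of large lipoproteins (positions 7977629 to 8016839 of chromosome 12 in GRCm38.p6), stood at 17.1 in ESCs against 12038 in EBs, 703-fold higher (464 to 1122). Cubn, the apical receptor cubilin (positions 13276338 to 13491876 of chromosome 2), stood at 39.7 and 15999.9, 403-fold higher (306 to 542). Afp, alpha-fetoprotein, the fetal counterpart of albumin (positions 90490714 to 90508907 of chromosome 5), stood at 17.9 and 8637, 482-fold higher (321 to 762). These 3 were low in ESCs, with 22, 51 and 23 reads, against 7724, 10266 and 5542 in EBs. Car4, a membrane-bound carbonic anhydrase (positions 84957754 to 84966054 of chromosome 11), stood at 3.89 and 3761, 966-fold higher (414 to 2979). Apoa1, the main protein of high-density lipoprotein (positions 46228630 to 46230469 of chromosome 9), stood at 3.11 and 3116 on 4 and 1999 reads, 1001-fold higher (390.2 to 3676). Ttr, the thyroid hormone carrier transthyretin, had 0 reads in ESCs and a value of 1612 in EBs, at least 690.2-fold higher. It had the highest log2 fold of all, 10.66.

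The others were of a few kinds. Secreted proteins were Fgb, the beta chain of fibrinogen (0.778 and 918), Apoa4, an apolipoprotein of chylomicrons (0.778 and 745), Spink1, a trypsin inhibitor (1.56 and 1008), Spp2 (0 and 368, at least 158-fold higher) and the galactose-binding Lgals2 (1.56 and 570.4). Surface proteins were Tmprss2, a membrane serine protease (3.11 and 764), Enpep, the aminopeptidase that trims angiotensin (1.56 and 408), and Muc13, a membrane mucin (3.11 and 711). Enzymes inside the cell were Ugt2b34, a glucuronosyltransferase (0 and 389.6, at least 167-fold higher), the lysosomal protease Ctsh (14.8 and 2707) and Cyp26a1, which breaks down retinoic acid (9.34 and 1562, 167-fold higher, interval 95.3 to 325). Transcription factors were Foxa2 of endoderm (2.33 and 502) and Tfec, a relative of MITF (0 and 229, at least 98.1-fold higher). In ESCs none of these exceeded 19 reads, and the interval of Fgb, 211 to 46662 on 1 ESC read, shows how wide a fold over so few reads is.

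The 20 lowest genes shared less. Cdx1, a caudal homeobox factor and a target of Wnt signalling, stood at 269 in ESCs against 1.56 in EBs, 173-fold lower (30.8 to 6844), on 346 reads and 1. Dmgdh, the mitochondrial dimethylglycine dehydrogenase of choline breakdown (positions 93674436 to 93752823 of chromosome 13), stood at 330.0 and 4.68, 70.6-fold lower (24.0 to 344). Xaf1, a partner of the apoptosis inhibitor XIAP (positions 72301461 to 72313733 of chromosome 11), stood at 439 and 10.9, 40.2-fold lower (19.4 to 101). Hal, the first enzyme of histidine breakdown (positions 93488768 to 93516761 of chromosome 10), had the highest ESC level of the 20 and stood at 748 and 45.2, 16.5-fold lower (11.4 to 24.8). Pramel6, a naive-state gene of the PRAME family (positions 87506565 to 87510865 of chromosome 2), stood at 601 and 24.9, 24.1-fold lower (14.7 to 42.4). Pdha2, the intronless testis form of pyruvate dehydrogenase, stood at 519 and 21.8. Signalling members were Inhbb, the beta B subunit of activin (244 and 12.5), the growth factor Pdgfc (272 and 17.1), the receptor Tnfrsf8 or CD30 (132 and 6.23) and the Ras relative Mras (379 and 21.8).

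Channels and transporters among the lowest 20 were Scn3a, a neuronal sodium channel (100.4 and 1.56), Trpm1, a cation channel of retina and melanocytes (183 and 9.35), Calhm5 (184 and 10.9) and the bile acid transporter subunit Slc51a (114 and 4.68). Nnmt, which methylates nicotinamide, stood at 187 and 6.23, 29.96-fold lower (11.6 to 111). The others were Accsl (177 and 1.56), the protease inhibitor Serpinb1a (214 and 3.12), Tmem117 (197 and 4.68), the muscle myosin Myh13 (289.5 and 15.6) and Prrt3 (205 and 12.5). Among them, 21.3% of the 28-nt windows in the coding sequence of Serpinb1a, 21.1% in Scn3a and 14.1% in Myh13 have a copy elsewhere in the genome, and how many reads they lost for lack of a unique place was not tested. In contrast with the highest 20, whose EB values ran from 229 to 15999.9, the ESC values of the lowest 20 ran from 100.4 to 748.

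**Figure D2:**
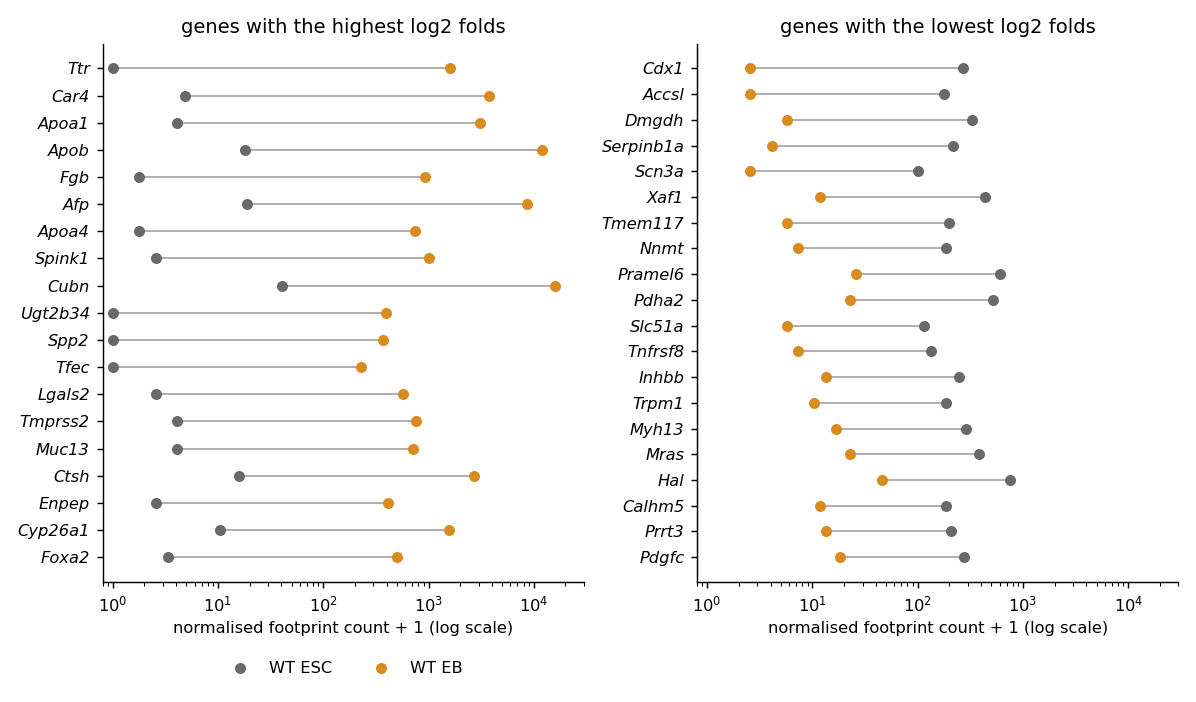
Normalised footprint count + 1 on a log scale in WT ESCs (dark) and WT EBs (orange) for leading genes with the highest log2 folds (left) and the 20 with the lowest (right), 1 library per point. On the left Cubn, Apob and Afp reach the highest EB values; on the right every gene keeps at most 45.2 of normalised count in EBs, and Cdx1, Accsl and Scn3a rest on 1 EB read.

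Many promoters of the leading genes hold few CG dinucleotides, and a few are printed for that reason. In the 250 bases before the start, 16 of the 20 highest genes had a median of 3.5 CG (0 to 20). For 16 of the 20 lowest genes the median was 5 (0 to 33). For 7 genes with the highest level per kb in WT ESCs it was 13 (10 to 25), so the ranges overlap. CG-poor promoters are common for genes switched on in particular tissues, and CG-rich ones for genes that most cells use. Shown are the 250 bases before the RefSeq start site in GRCm38.p6, 5′ to 3′ along the gene, in lower case with each CG in capitals. Apoa4 (chr9:46240594-46240843 on the plus strand) has 1, Afp (chr5:90490464-90490713 on the plus strand) has 1, Cyp26a1 (chr19:37697558-37697807 on the plus strand), an exception among the highest genes, has 20, Pramel6 (chr2:87506315-87506564 on the plus strand), lower in EBs, has 2, and Mt2 (chr8:94172368-94172617 on the plus strand), a metallothionein with a high level per kb in both libraries, has 21.
Apoa4: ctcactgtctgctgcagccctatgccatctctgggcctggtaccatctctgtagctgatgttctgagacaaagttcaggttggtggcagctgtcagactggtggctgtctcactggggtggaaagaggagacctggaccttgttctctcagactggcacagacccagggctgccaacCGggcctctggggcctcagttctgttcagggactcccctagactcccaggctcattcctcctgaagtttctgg
Afp: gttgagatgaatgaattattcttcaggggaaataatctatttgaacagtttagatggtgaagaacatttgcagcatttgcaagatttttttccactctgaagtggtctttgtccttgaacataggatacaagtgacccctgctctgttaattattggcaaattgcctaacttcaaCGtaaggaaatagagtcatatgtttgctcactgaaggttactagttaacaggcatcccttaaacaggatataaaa
Cyp26a1: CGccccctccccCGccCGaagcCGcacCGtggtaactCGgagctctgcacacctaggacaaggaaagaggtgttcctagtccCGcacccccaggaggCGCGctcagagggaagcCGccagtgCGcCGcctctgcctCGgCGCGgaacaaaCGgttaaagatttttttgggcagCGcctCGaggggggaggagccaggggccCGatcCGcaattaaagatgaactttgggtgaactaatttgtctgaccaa
Pramel6: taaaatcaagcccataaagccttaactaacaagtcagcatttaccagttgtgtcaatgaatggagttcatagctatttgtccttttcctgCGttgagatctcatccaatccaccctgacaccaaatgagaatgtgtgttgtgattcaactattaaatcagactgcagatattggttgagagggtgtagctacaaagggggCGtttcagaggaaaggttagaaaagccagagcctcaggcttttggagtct
Mt2: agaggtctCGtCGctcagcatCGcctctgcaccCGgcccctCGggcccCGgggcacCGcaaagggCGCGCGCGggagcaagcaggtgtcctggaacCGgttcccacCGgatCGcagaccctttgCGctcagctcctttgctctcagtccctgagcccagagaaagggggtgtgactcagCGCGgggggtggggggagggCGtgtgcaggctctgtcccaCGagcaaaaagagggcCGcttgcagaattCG

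Over whole classes, counted in windows of 300 bases (250 before to 50 after the start), promoters of 7416 of the genes compared could be matched by gene ID. The median promoter of all these genes held 21 CG, and that of all RefSeq promoters 7. The median was 19 for genes at least 2-fold higher, 16 at 4-fold and 9 at 16-fold (102 promoters of 81 genes). Genes at least 16-fold higher were thus CG-poor beside the genes compared, but not beside all RefSeq promoters. On the lower side it was 16, 12 and 4 (23 promoters of 20 genes at 16-fold), and both ends of the comparison held CG-poor promoters. Within the lowest of 5 bins by mean level, the median was 17 for genes within 2-fold and 16 for those at least 4-fold higher, and within the highest bin 24 and 16 (20 promoters). Of 9 strings searched on both strands, TATAAA stood in 6.88% of promoters of all genes compared, 18.6% of those at least 16-fold higher, 17.4% of those at least 16-fold lower and 13.6% of all RefSeq promoters of this length. TGACTCA, the letters that AP-1 binds, on both strands, stood in 3.37%, 13.7%, 8.70% and 5.20% of the same sets. ATTTGCAT, the octamer that POU factors bind, stood in 1.41%, 1.96%, 0% and 1.74%. The GATA string AGATAA stood in 5.78%, 9.80%, 17.4% and 11.2%, the KLF string CCACCC in 37.3%, 41.2%, 56.5% and 31.5%, and the FOXA string TGTTTAC in 2.43%, 1.96%, 0% and 3.65%. CAAAGTCCA, the letters of HNF4, stood in 0.349%, 0.980%, 0% and 0.475%, TCAAGGTCA, those of ESRRB, in 0.259%, 0%, 0% and 0.423%, and the remaining string was in under 1% of each set. None of the 8 printed contains another. These are matches of letters, on 102 and 23 promoters at the ends, and no binding was measured.

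The only replicated test that the 4 libraries allow takes both genotypes together and asks about stage, with genotype as a term. It was run on whole reads recovered from the normalised values by edgeR's quasi-likelihood test with Benjamini-Hochberg adjustment over 9670 genes, and it called 19 autosomal genes higher (0.205%) and 2 lower (0.0216%) in EBs at an adjusted p under 0.05. At an unadjusted p under 0.05 it had 687 (7.42%) and 377 (4.07%), and DESeq2 called 254 (2.74%) and 90 (0.971%) at its adjusted threshold. Among the 19 were Fgb (edgeR adjusted p = 0.01646), Cubn (0.01646), Apoa4 (0.01646), Car4 (0.0248), Afp (0.03295) and Enpep (0.0345). These genes had been named for their WT folds, and the same WT libraries entered the test, so their p-values are no separate support. Fgb, Apoa4 and Enpep passed the mean filter only through their WT EB value. The 2 called lower were Stra8, a retinoic acid target that opens meiosis (adjusted p = 0.02617; 929 and 108 in the WT pair), and Scd1, a stearoyl-CoA desaturase (adjusted p = 0.03295; 1493 and 281), of which 37.5% of windows are copied. The test treats WT and KO as replicates of a stage, so a gene that moves in the WT pair alone adds to its spread.

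Transcription factors of primitive and visceral endoderm were mostly higher among those that passed. Of 29 autosomal factors listed, 15 passed the filter; 11 were at least 2-fold higher and 1 lower, and their median log2 fold was 4.63 beside −0.02 for all genes. Gata6, an early switch to primitive endoderm, stood at 24.1 and 665, 27.6-fold higher (19.1 to 41.1). Gata4, which acts with it (positions 63198914 to 63271712 of chromosome 14), stood at 48.3 and 1217, 25.2-fold higher (19.5 to 33.2), and Sox17, an HMG-box factor of endoderm (positions 4490928 to 4497426 of chromosome 1), at 34.2 and 843, 24.6-fold higher (18.1 to 34.3). These 3 early factors had nearly the same log2 folds, 4.73, 4.63 and 4.58, with intervals that overlap. Factors of mature visceral endoderm switch on genes of lipid export and plasma proteins. Of these factors, Hnf4a stood at 6.23 and 399 (64.1-fold higher, interval 32.03 to 150.0). Foxa2 stood at 2.33 and 502 (215-fold higher, interval 72.9 to 1048). The interval of Hnf4a overlaps those of the 3 early factors. Also higher were Sox7 (7.005 and 357), Foxq1 (7.78 and 357), the lipid regulator Creb3l3 (7.78 and 231), Maf (0.778 and 120.0) and, least of the 11, the Wnt effector Tcf7l2 (23.4 and 65.5).

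The exception was Gsc, goosecoid, a homeobox factor of the organiser and anterior endoderm, at 155 and 12.5, 12.4-fold lower (6.18 to 29.2). Hhex of anterior visceral endoderm (213 and 132) and Nr2f6 (113 and 190.1) stayed within 2-fold. Nr2f1 and Zic4, with 1 entry each, had no read in WT EBs, and Eomes, Nr1h4 and Ppara, with more than 1, are listed at 0. For the list as a whole, the share of gene reads went from 0.0122% to 0.0896%.

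Genes of lipoprotein export were mostly higher in EBs. Of 32 listed apolipoproteins and assembly genes 19 passed, 12 stood at least 2-fold higher against 2 lower, and the median was 2.04; the list's share of gene reads went from 0.182% to 0.592%. Beyond Apob, Apoa1 and Apoa4 came Apom, a carrier of sphingosine phosphate (16.3 and 966, 59.1-fold higher, interval 38.3 to 96.2), Apoc2, the activator of lipoprotein lipase (16.3 and 670.2, 41.0-fold higher, interval 26.5 to 66.9), and Clu, clusterin (314 and 3271, 10.4-fold higher, interval 9.37 to 11.6). Apoa2 was nearer to its ESC level (149 and 457, 3.07-fold higher, interval 2.55 to 3.71). Apoe, which was already among the most translated genes of ESCs, stood at 7066 and 12708 and stayed within 2-fold, 1.798-fold higher (1.75 to 1.85). Of the enzymes that make the lipid cargo, Mogat2 and Dgat2 of triglyceride synthesis stood at 11.7 and 301 and at 56.8 and 237, and Soat2, which esterifies cholesterol, at 73.9 and 676 (9.15-fold higher, interval 7.31 to 11.55). The 2 lower members were Lpl, which hydrolyses triglycerides outside the cell (386 and 84.2, 4.59-fold lower, interval 3.46 to 6.19), and the cholesterol exporter Abca1 (1129 and 351, 3.22-fold lower, interval 2.79 to 3.72).

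Plasma carriers and clotting factors were nearly all on the higher side. Of 28 carriers and hormone-binding proteins 15 passed, 12 were higher and 1 lower, the median was 3.27, and their share of reads went from 0.0986% to 0.359%. Rbp4, the plasma carrier of retinol, stood at 3.11 and 337 (108-fold higher, interval 41.6 to 400.4) and Trf, transferrin, at 93.4 and 912 (9.76-fold higher, interval 8.01 to 11.98). Amn, amnionless, which anchors cubilin in the membrane, stood at 12.5 and 1750.2 (141-fold higher, interval 86.2 to 247). The insulin-like growth factor Igf2 was low even in EBs (0.778 and 43.6), and its binding protein Igfbp4 stood at 35.0 and 365. The lower member was Apod (95.7 and 17.1, 5.58-fold lower, interval 3.01 to 11.48). Of 32 genes of coagulation and fibrinolysis 16 passed, 13 were higher and 0 lower, with a median of 2.57. They covered both directions of clotting: tissue factor F3, which starts it (29.6 and 1323, 44.7-fold higher, interval 32.3 to 63.7), prothrombin F2 (37.4 and 238), the fibrinogen chain Fgg (26.5 and 254), the plasminogen activator Plat (18.7 and 656, 35.1-fold higher, interval 23.3 to 55.4), the urokinase receptor Plaur (63.8 and 714), the antiplasmin Serpinf2 (0.778 and 242) and the inhibitor Tfpi (189 and 733). Complement genes were few: 6 of 27 listed genes passed, with 2 higher, 1 lower and a median of −0.03, and C3, its central component, had 1.56 in EBs.

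Genes for uptake at an apical surface were more often higher than lower. Of 30 endocytic receptors and apical surface genes 19 passed, 10 were higher and 3 lower, the median was 1.36 (2.33 with a mean of at least 100), and their share of reads went from 0.230% to 0.805%. Lrp2, megalin, the large receptor that works with cubilin, stood at 336 and 13679 (40.7-fold higher, interval 36.9 to 44.9). Podxl, the sialomucin of apical membranes, stood at 324 and 4300.0 (13.3-fold higher, interval 11.98 to 14.8), and the microvillus genes Vil1, villin, and Cdhr2, a link between microvilli, at 14.0 and 243 and at 0.778 and 139. Against these, the brush-border motor Myo1a stood at 85.6 and 0, at least 18.3-fold lower, and Fcgrt, the neonatal Fc receptor, at 231 and 90.4. Of 28 apical peptidases and ectoenzymes 17 passed, with 11 higher, 0 lower and a median of 1.25. Prss12, a secreted serine protease, stood at 4.67 and 848 (182-fold higher, interval 82.9 to 497), Enpp3, a nucleotide phosphodiesterase, at 193 and 2540.4, Car12 at 14.0 and 323 and Anpep, aminopeptidase N, at 139 and 391.

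Carriers were mixed. Of 26 sugar, ion and amino acid carriers that passed, 9 were higher and 4 lower (median 0.81, but 0.12 with a filter of at least 100 on the mean). Higher were Slc23a1, a vitamin C transporter (0.778 and 154), Slc40a1, the iron exporter ferroportin (3.11 and 326, 105-fold higher, interval 40.3 to 388), Slc34a2, a phosphate carrier (4.67 and 351), the prostaglandin carrier Slco2a1 (66.9 and 1516) and the organic anion pump Abcc2 (26.5 and 552). Slc16a1, a lactate carrier that was high in both, stood at 2768 and 6591. Lower were Slc7a5 (5603 and 2709), Slc1a5 (3119 and 1311) and Slc7a11 (61.5 and 9.35), carriers of leucine, glutamine and cystine, and the folate carrier Slc46a1 (269 and 122). Among 26 genes of iron, haem and vitamin handling that passed, 9 were higher and 3 lower. Retinoid genes went both ways: Rdh10, which makes retinal, stood at 32.7 and 307 and the cellular binding protein Crabp2 at 33.5 and 99.7, while Aldh1a2 and Aldh1a3, which make retinoic acid, stood at 181 and 43.6 (4.16-fold lower, interval 2.801 to 6.39) and at 38.9 and 7.79. With Cyp26a1 167-fold higher, an enzyme that removes retinoic acid and those that make it lay in opposite directions. Xenobiotic and bile acid genes had 8 higher and 0 lower of 21, Ugt2b34 first.

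Basement membrane genes went both ways. Col4a1 and Col4a2, the 2 chains of the main collagen IV network, lie head to head on chromosome 8 (Col4a1 at 11198423 to 11312889) and had like folds. Col4a1 stood at 422 and 12783 (30.3-fold higher, interval 27.8 to 33.1) and Col4a2 at 295 and 9152 (31.0-fold higher, interval 27.96 to 34.5). Of the laminin of early embryos, Lama1 stood at 2541 and 21662 (8.52-fold higher, interval 8.205 to 8.86) and Lamb1 at 1660.2 and 16809 (10.1-fold higher, interval 9.66 to 10.6), but Lamc1, its gamma chain, stood at 12688 and 16287, 1.28-fold higher (1.25 to 1.32), having been high in ESCs already. Lama3, a chain of the epidermal laminin, was lower at 1234 and 463 (2.67-fold lower, interval 2.35 to 3.03). Nid1, which joins laminin to collagen IV, was lower as well (8630.2 and 3134, 2.75-fold lower, interval 2.63 to 2.89), while its relative Nid2 (8492 and 9083) and perlecan Hspg2 (7323 and 10822) stayed within 2-fold. Over the list, 27 of 37 passed, 9 were higher and 4 lower, the median was 0.48, and the share of reads went from 0.985% to 1.96%. P3h2, a prolyl hydroxylase of collagen IV, stood at 1.56 and 293 (188-fold higher, interval 51.4 to 1566).

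The parietal endoderm list shares collagen IV and laminin genes with it, and 11 of its 18 members that passed were higher and 2 lower, with a median of 2.8. Sparc, an abundant product of that tissue, was high in both (5286 and 8686), Snai1, a repressor of E-cadherin, stood at 34.2 and 411 (12.01-fold higher, interval 8.71 to 16.9), Thbd, thrombomodulin, at 31.9 and 185, and Vim, vimentin, was lower at 1557 and 706 (2.20-fold lower, interval 1.99 to 2.45). Pth1r, Dab2, Pdgfra, Lamb3, Stra6 and Serpinh1, each with more than 1 entry, are listed at 0 in WT EBs, from which no level can be read. Of 25 genes of fibroblasts and interstitial matrix 17 passed, 12 were higher and 0 lower (median 1.51). The summed value of the list was 2663 in ESCs and 9426 in EBs, against 65727 and 129467 for the 37 genes of basement membrane. Genes listed at 0 in EBs, 6 and 8 in the 2 lists, add nothing to these sums, which are not corrected for coding length. The levels of the 2 lists can therefore not be compared by them. Collagen I chains Col1a1 and Col1a2 stood at 187 and 527 and at 74.7 and 215, Col6a1 at 17.1 and 109, thrombospondin Thbs1 at 116 and 1340.3 (11.6-fold higher, interval 9.70 to 13.8) and Ccn1, a target of YAP, at 373 and 2542 (6.82-fold higher, interval 6.15 to 7.57). Dcn, Postn, Pdgfrb, Lox, Fn1 and Col6a3, again with more than 1 entry each, are listed at 0 in EBs.

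Keratin and junction genes, which give an epithelium its form, had no member at least 2-fold lower among those that passed. Of 12 keratin and desmosome genes that passed 7 were higher and 0 lower (median 1.72), led by the simple keratins Krt18 (132 and 3597, 27.3-fold higher, interval 23.4 to 32.2), Krt19 (35.0 and 634, 18.1-fold higher, interval 13.3 to 25.2) and Krt8 (87.2 and 1334, with 71.2% of windows copied). Of 21 tight and adherens junction genes that passed 14 were higher and 0 lower (median 1.42). Cldn6, a claudin of embryonic epithelia, stood at 168 and 2801 (16.7-fold higher, interval 14.5 to 19.3), Ocln, occludin, at 189 and 718, Cldn4 at 781 and 2110.2 and Epcam, an adhesion molecule already high in ESCs, at 1526 and 3435. Esrp1, a splicing factor of epithelial cells, stood at 49.8 and 1197 (24.0-fold higher, interval 18.6 to 31.5), and Grhl2, a factor that keeps up epithelial genes, at 132 and 444. Of 41 genes of the actin cytoskeleton 16 were higher and 2 lower: Zyx, zyxin of focal adhesions, stood at 152 and 1504 (9.91-fold higher, interval 8.49 to 11.6), Myl9, a myosin light chain, at 26.5 and 393 (14.8-fold higher, interval 10.3 to 21.9), and Cnn2, a calponin, at 227 and 1546.

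**Figure D3:**
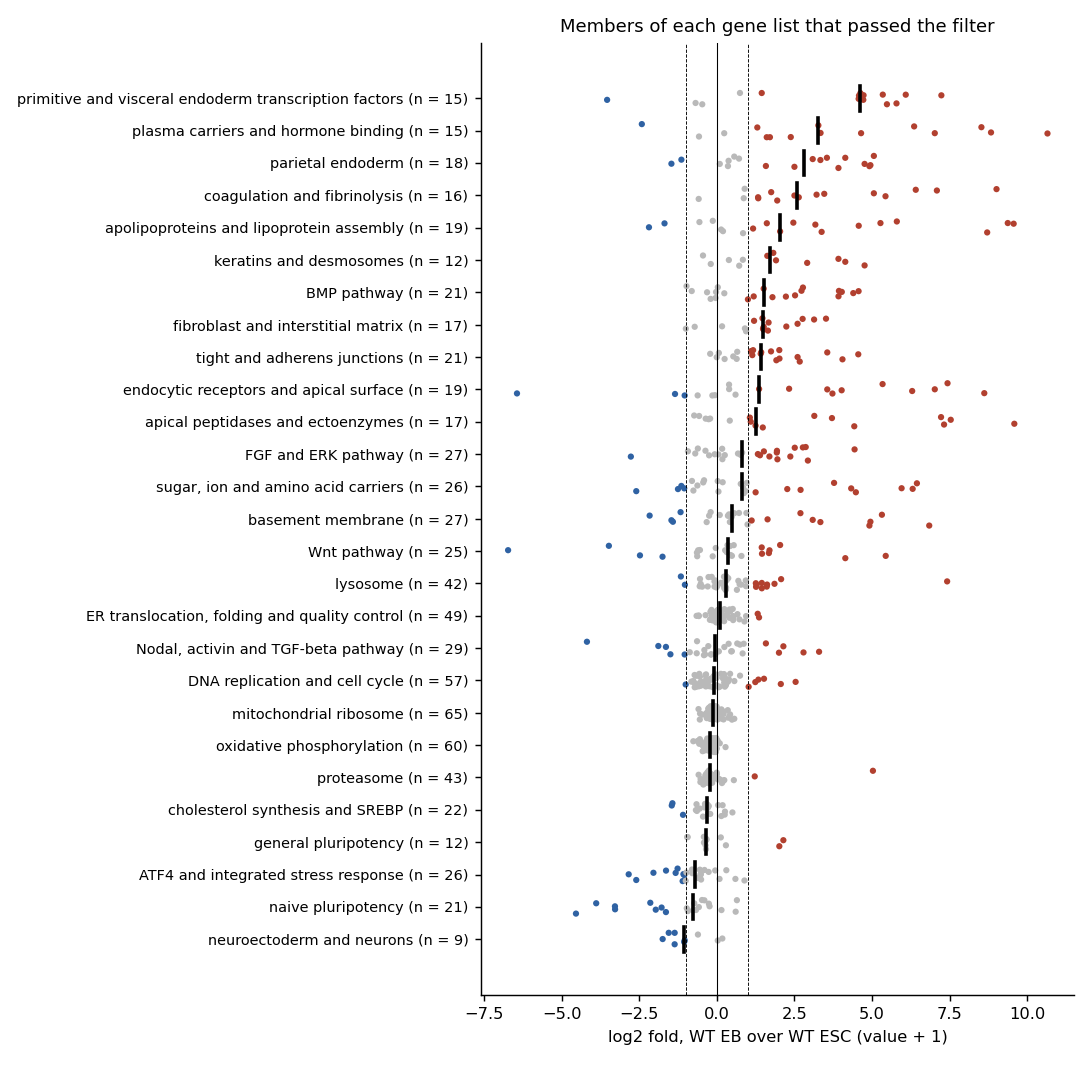
Log2 folds of WT EB over WT ESC (x axis) for the members of 27 gene lists that passed the filter, 1 point per gene, red at least 2-fold higher and blue at least 2-fold lower; the black bar is each list's median and dashed lines mark 2-fold. Endoderm factors have the highest median (4.63) and neuroectoderm genes the lowest (−1.05), while the points of the mitochondrial ribosome and oxidative phosphorylation all lie within 2-fold.

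Proteins that enter the secretory pathway carry a hydrophobic stretch at the N terminus, so each coding sequence was scored for one by hydropathy alone. A stretch was called where any 12 residues within the first 30 averaged at least 2 on the Kyte-Doolittle scale, and a later stretch where 19 residues beyond position 40 averaged at least 1.6. The rule found a stretch in 23 of 30 plasma carriers and 28 of 33 coagulation proteins against 0 of 79 ribosomal and 1 of 45 proteasome proteins, and it missed Afp and Cubn, both secreted or surface proteins. Of 597 genes with an N-terminal stretch alone 25.3% were at least 2-fold higher and 12.6% lower, against 8.22% and 6.77% of 6147 with neither stretch. Among genes with both stretches, as membrane proteins with a signal have, 650 in all, 121 were higher and 78 lower. The genes with an N-terminal stretch alone took 4.57% of gene reads in ESCs (Wilson 95% interval 4.56 to 4.58) and 6.41% in EBs (6.39 to 6.44). Among genes at least 16-fold higher 28.8% had an N-terminal stretch alone, against 6.47% of all genes compared, and among the 27 genes at least 16-fold lower 0 did. Both stretches were found in 16.8% of the former and in 5 (18.5%) of the latter, against 7.04% of all. Genes at least 4-fold lower also lay above all genes compared, with 12.6% for an N-terminal stretch alone and 11.3% for both.

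**Figure D4:**
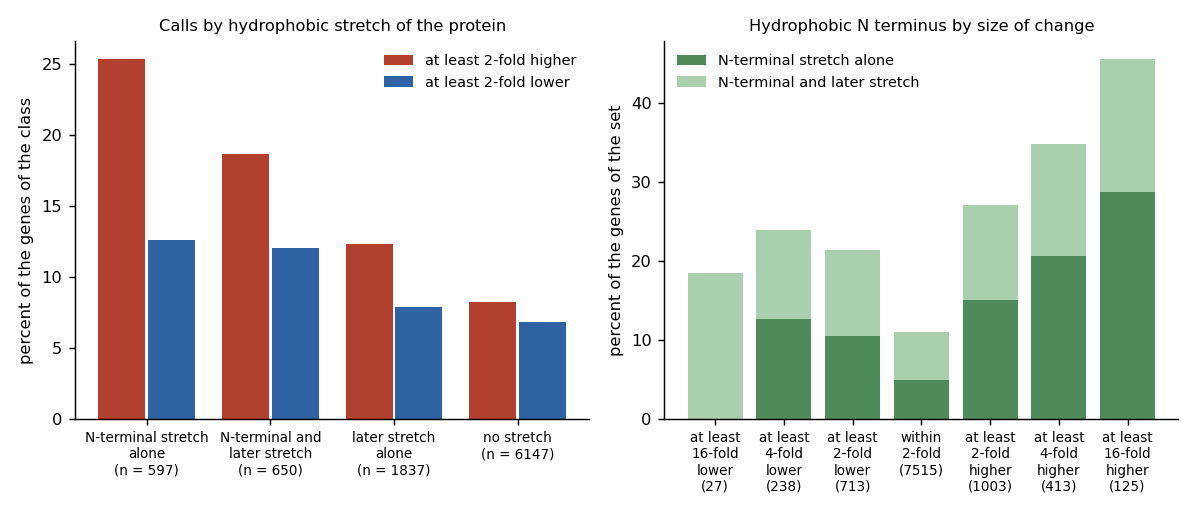
Left, percent of genes of each protein class that were at least 2-fold higher (red) or lower (blue) in WT EBs, by hydrophobic stretches in the protein. Right, percent of genes with an N-terminal stretch, alone (dark) or with a later one (light), in sets by size of change, the larger folds being nested in the smaller; numbers in brackets count genes with a sequence. The share with an N-terminal stretch alone is 28.8% at 16-fold higher, 4.94% within 2-fold and 12.6% at 4-fold lower.

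The machinery that handles such proteins held few calls. Calls were rarer among highly counted genes in general, with 3.02% higher and 3.02% lower in the highest of 5 bins by mean level. Of 49 genes of ER translocation and folding that passed 2 were higher and 0 lower (median 0.09), namely Derl3, of ER-associated degradation (57.6 and 149.6), and Xbp1, the unfolded protein response factor (38.1 and 96.6). Of 39 genes of traffic from ER to Golgi 2 were higher and 0 lower (median 0.18), Creb3l1 (65.4 and 201) and the retrieval receptor Kdelr3 (307 and 762). Lysosomal genes, which serve the uptake side, had 10 higher and 2 lower of 42 (median 0.29), and their share of reads went from 0.971% to 1.31%. Proteases led: Ctsh (14.8 and 2707, 183-fold higher, interval 117 to 305), legumain Lgmn (1419.7 and 5977, 4.21-fold higher, interval 3.98 to 4.45), Ctsc (1096 and 3373), Ctsz (989 and 3022) and Ctsl (4026 and 9636, 2.39-fold higher, interval 2.31 to 2.48). Lower were Glb1, a beta-galactosidase (2711 and 1216, 2.23-fold lower, interval 2.06 to 2.41), and Tfeb, a master regulator of lysosomal genes (67.7 and 32.7).

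Naive pluripotency genes lay on the lower side. Of 24 autosomal members 21 passed, 0 stood higher by 2-fold, 8 stood lower, the median was −0.77, and their share of reads went from 0.648% to 0.361%. Klf4, a Krüppel-like factor held up by LIF (positions 55527137 to 55532475 of chromosome 4), stood at 2371 and 243 (9.75-fold lower, interval 8.30 to 11.53). Tfcp2l1, which stands under LIF and GSK3 inhibition, stood at 5653 and 1446 (3.91-fold lower, interval 3.65 to 4.19), Tet2, an oxidiser of methylcytosine, at 3379.5 and 765 (4.42-fold lower, interval 4.02 to 4.86), and Prdm14, a repressor of FGF signalling and DNA methylation, at 1868 and 544 (3.43-fold lower, interval 3.07 to 3.85). Spic (189.9 and 18.7), Pramel7 (106 and 6.23) and Tdgf1, the Nodal co-receptor (807 and 259, 70.6% of windows copied), completed the 8 with Pramel6. Other members stayed within 2-fold: Klf5 stood at 4836 and 2473, Zfp42 at 3510.3 and 2523, Klf2 at 3245 and 2719.6 and Nanog at 6105 and 3691, and Dppa5a and Dppa3 lay above their ESC value (818 and 909; 279 and 425). Esrrb, with 2 entries in the table, had 0.778 and 1.56; entries of a gene that overlap lose reads as ambiguous, so its low value cannot be read as low translation.

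General pluripotency genes had 2 higher and 0 lower of 12 (median −0.34). Lin28a, an RNA-binding inhibitor of let-7, stood at 274 and 1216 (4.44-fold higher, interval 3.91 to 5.05) and Utf1, a chromatin factor of the pluripotent state, at 1262 and 5104 (4.05-fold higher, interval 3.81 to 4.30). Sox2 stood at 3859 and 3067 and Pou5f1 at 2860.4 and 1493, 1.92-fold lower (1.78 to 2.06) with 25.3% of windows copied. Formative and primed genes split, with 3 higher and 2 lower of 10 (median −0.39). Besides Cldn6, Pou3f1, Oct6, stood at 63.8 and 315 (4.93-fold higher, interval 3.798 to 6.46) and the Nodal inhibitor Lefty1 at 73.9 and 519 (7.02-fold higher, interval 5.57 to 8.91, 39.1% copied). Foxd3 stood at 565 and 228 (2.48-fold lower, interval 2.08 to 2.99) and Sall3 at 454 and 39.0 (11.6-fold lower, interval 7.81 to 18.1). Fgf5, a marker of the step out of naive pluripotency, stood at 0.778 and 84.2 and lay below the filter on the mean over 4 libraries.

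Markers of other lineages went several ways, at low summed levels. Of 25 autosomal genes of neuroectoderm and neurons 9 passed, 0 were higher and 6 lower (median −1.05), and their share of reads went from 0.0734% to 0.0311%. In WT EBs 12 of the 25 are listed at 0, of which 4 have 1 entry, Neurog2 among them. Stmn2, a neuronal tubulin regulator, stood at 2006 and 782 (2.56-fold lower, interval 2.33 to 2.83), Tubb3 at 1418 and 553, Olig2 at 409 and 122 and Nes, nestin, at 362 and 123. Of 23 mesoderm genes 7 passed, 3 higher and 2 lower (median −0.22, but 2.67 with a filter of at least 100 on the mean); T, brachyury, stood at 6.23 and 4.68, Mesp1, with 1 entry, had no read in EBs, Hand1 (6.23 and 40.5) and Bmp4 (36.6 and 129) were higher, and the share of reads went from 0.00378% to 0.0117%. Of 26 heart and muscle genes 8 passed. Myl3, a ventricular myosin light chain, stood at 2.33 and 301 (129-fold higher, interval 43.4 to 630.1), and the share of reads went from 0.0112% to 0.0184%. Tnnt2 and Myh6, defining genes of cardiomyocytes, have more than 1 entry and are listed at 0 in EBs. Blood had 2 of 19 past the filter, Gata2 (40.5 and 117) and Laptm5 (1926 and 464), and Hba-x and Hbb-y, embryonic globins, stood at 1.56 in EBs, which is 1 read; the blood list went from 0.0300% to 0.00980% of reads. Endothelium had 3 higher and 2 lower of 10: Flt1, a VEGF receptor, stood at 18.7 and 564 (30.2-fold higher, interval 19.98 to 47.8) and Kdr, the other, at 32.7 and 10.9, with Pecam1, Eng and Emcn, all of more than 1 entry, listed at 0; the share of reads went from 0.0128% to 0.0194%. Trophoblast had 4 higher and 0 lower of 6 that passed, with Gata3 at 41.3 and 349 and Krt7 at 39.7 and 305, while Elf5 and Prl3d1, both of more than 1 entry, are listed at 0 in EBs. The trophoblast share of reads went from 0.00946% to 0.0214%.

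Germline genes went both ways, 6 higher and 6 lower of 21 (median 0.01), and split within meiosis. Of the synaptonemal complex, Sycp3 stood at 223 and 651 (2.93-fold higher, interval 2.51 to 3.41), whereas Sycp1 (860.1 and 117, 7.36-fold lower, interval 5.82 to 9.43) and Syce1 (490.4 and 87.3, 5.62-fold lower, interval 4.27 to 7.52) were lower. Smc1b, a meiotic cohesin, was higher (400.1 and 1146, 2.86-fold higher, interval 2.55 to 3.21) and Stra8 lower (8.64-fold lower, interval 6.78 to 11.2). Prdm1, the repressor that sets up germ cells and is also made by endoderm, stood at 138 and 658 (4.77-fold higher, interval 3.996 to 5.72). Of 5 genes of the 2-cell-like state that passed, 0 were higher and 2 lower, both mostly copied sequence (Zscan4d, 61.5 and 20.3, 65.3% copied).

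ESCs had a MEK inhibitor, a GSK3 inhibitor and LIF; the EB medium is described without them, and the lists of the pathways they act on are given for that reason. Of 27 genes of FGF and ERK signalling that passed 13 were higher and 1 lower (median 0.82), among them targets and feedback inhibitors of ERK: the phosphatases Dusp4 (54.5 and 1203, 22.1-fold higher, interval 17.3 to 28.6) and Dusp6 (303 and 1569, 5.18-fold higher, interval 4.61 to 5.84), Spry4 (99.6 and 385), Phlda1 (109 and 840.0) and the immediate early genes Egr1 (10.9 and 85.7), Jun (126 and 485) and Fos (41.3 and 120.0). The receptor Fgfr4 stood at 34.2 and 240.0, and Dusp14 was lower (346 and 49.9). Wnt genes had 7 higher and 4 lower of 25 (median 0.35). Lower were Cdx1, a target of the pathway, Notum, another target, which inactivates Wnt ligands (739 and 65.5, 11.3-fold lower, interval 8.28 to 15.8), the secreted inhibitor Sfrp1 (2559.9 and 459.8, 5.57-fold lower, interval 4.94 to 6.29), and the receptor Fzd3 (59.9 and 17.1). Higher were other inhibitors, Frzb (0.778 and 76.4), Dkk1 (7.005 and 140.3, 20.02-fold higher, interval 10.1 to 45.2) and Sfrp5 (28.02 and 118), and the receptors Fzd2 (93.4 and 305) and Fzd7 (612 and 1962). LIF and STAT3 genes had 3 of 15 on each side (median 0.00): Socs3, a feedback inhibitor (445 and 164), Bcl3 (699 and 90.4, 7.73-fold lower, interval 5.93 to 10.3) and Il6ra (113 and 18.7) were lower, and Cish (23.4 and 76.4), Junb (155 and 408) and Ifngr2 (14.8 and 93.5) higher.

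The BMP list had a median of 1.51, and 13 of 21 members were higher and 0 lower. They covered ligands, Bmp2 (3.11 and 85.7, 27.5-fold higher, interval 10.2 to 105), Bmp4 and Bmp6 (10.9 and 77.9), extracellular inhibitors, Nog (3.11 and 96.6, 31.0-fold higher, interval 11.53 to 117), Grem1 (6.23 and 117) and Bmper (7.005 and 122), the receptor Bmpr2 (169 and 339.8), and the direct targets Id1 (87.2 and 603, 6.92-fold higher, interval 5.59 to 8.62), Id2 (43.6 and 675, 15.5-fold higher, interval 11.7 to 20.8) and Msx2 (62.3 and 143). Most of these genes had low ESC values, and the median was 0.62 with a mean of at least 100, where that of FGF and ERK was 0.73, and, with a pseudocount of 5, 1.16. Nodal and TGF-beta genes had 5 on each side of 29 (median −0.04). The activin subunits lay apart: Inhba stood at 18.7 and 77.9 (4.17-fold higher, interval 2.52 to 7.10) and Inhbb at 244 and 12.5 (19.5-fold lower, interval 9.79 to 45.7). Follistatin, Fst, which binds activin, stood at 142 and 429 and its relative Fstl3 at 5.45 and 62.3, Nodal itself stayed within 2-fold (1776 and 1135), and Pcsk6, a convertase of Nodal, was lower (1936 and 687).

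In the combined list of Hedgehog, Notch and Hippo genes 11 of 30 were higher and 5 lower (median 0.53). Ihh, the Hedgehog ligand that visceral endoderm makes, stood at 3.89 and 307 (78.9-fold higher, interval 33.2 to 246), while Hhip, an inhibitor and target of Hedgehog, stood at 148 and 17.1 (8.63-fold lower, interval 4.71 to 17.6) and Gli2 at 1188 and 471. Notch ligands differed: Dll1 and Jag2 were higher (13.2 and 87.3; 174 and 455) and Jag1 lower (449 and 195). Ankrd1, Ccn1 and Ccn2, targets of YAP, were all higher, Ankrd1 most (7.005 and 171, 24.5-fold higher, interval 12.4 to 54.9). Of 28 growth factor ligands and receptors 12 were higher and 4 lower (median 0.62). The PDGF family lay on both sides, with Pdgfa (693 and 301) and Pdgfc lower and Pdgfb higher (10.9 and 31.2). Nrg1 stood at 8.56 and 229 (26.8-fold higher, interval 14.5 to 54.8), the ephrin receptor Epha1 at 12.5 and 313 (25.2-fold higher, interval 15.1 to 44.9) and the insulin receptor substrate Irs2 at 154 and 845.

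Metabolic lists had medians nearer 0. Cholesterol synthesis had 0 higher and 3 lower of 22 (median −0.32); of these Tm7sf2 stood at 367 and 136 (2.70-fold lower, interval 2.15 to 3.44), and Acat2 and Idi1 have 70.0% and 86.2% of windows copied. Fatty acid genes had 5 higher, 4 lower and 19 within 2-fold of 28 (median −0.25). Higher were genes of oxidation, Acadl (397 and 1225, 3.09-fold higher, interval 2.76 to 3.46), Ehhadh (159 and 482, 3.03-fold higher, interval 2.53 to 3.64), Cpt1b (80.9 and 193) and Cpt2 (616 and 1234), and the acyl-CoA synthetase Acsl5 (49.0 and 206). Lower were genes of synthesis, Scd1 (1493 and 281, 5.32-fold lower, interval 4.57 to 6.23), Scd2 (3165 and 865), Elovl7 (511 and 251) and Acacb (812 and 217), the last a carboxylase whose product restrains oxidation. Glycolysis and hypoxia genes had 7 higher and 0 lower of 26 (median 0.36), among them targets of HIF: P4ha1, a collagen prolyl hydroxylase (966 and 4239, 4.39-fold higher, interval 4.10 to 4.70), Pdk1, which turns down pyruvate dehydrogenase (371 and 1574, 4.24-fold higher, interval 3.799 to 4.74), and Egln3, a HIF hydroxylase (104 and 438). In gluconeogenesis and sugar storage 3 of 22 were higher (13.6%) and 1 lower (4.55%), beside 10.9% and 7.77% of all genes. Among the higher were Khk, fructokinase (23.4 and 88.8), and the glycogen phosphorylase Pygl (144 and 438). The lower gene was Fbp2, a fructose bisphosphatase (166 and 23.4).

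The ATF4 response had the lowest median among the metabolic lists, −0.71, with 0 higher and 9 lower of 26. Its share of reads went from 0.964% to 0.604%. Atf4 itself stood at 2462 and 1169 (2.11-fold lower, interval 1.94 to 2.28), Trib3 at 1127 and 525, Ddit3, CHOP, at 229.6 and 95.1 (2.42-fold lower, interval 1.83 to 3.24), Atf5 at 247 and 59.2 (4.17-fold lower, interval 2.97 to 6.00) and Ppp1r15a, GADD34, at 229.6 and 73.3. In serine, one-carbon and threonine metabolism 2 of 24 were higher (8.33%) and 5 lower (20.8%), beside 10.9% and 7.77% of all genes (median −0.30). Gldc, the decarboxylase of glycine cleavage, was higher (1226 and 5958, 4.86-fold higher, interval 4.58 to 5.16) and Gnmt, which disposes of methyl groups, too (13.2 and 67.02). Aldh1l1 and Aldh1l2, which oxidise formyl folate, were lower (752 and 260.3; 99.6 and 21.8), and Bhmt2, a methyltransferase of homocysteine, stood at 158 and 10.9 (14.5-fold lower, interval 6.90 to 36.5), and Dmgdh, far lower too, belongs to the same choline route. Of 36 genes of peroxisomes and redox 3 were higher (8.33%) and 4 lower (11.1%), near the 10.9% and 7.77% of all genes. The plasma glutathione peroxidase Gpx3 stood at 123 and 775 (6.30-fold higher, interval 5.26 to 7.58). The cytosolic Gpx1 stood at 3236 and 698 (4.64-fold lower, interval 4.204 to 5.12).

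Several lists of genes that every cell uses held few or no calls. Over all genes compared 10.9% were higher and 7.77% lower, but in the highest of 5 bins by mean level 3.02% and 3.02%. Whether these lists differ from other genes of their level was not tested. No member was past 2-fold among 60 genes of oxidative phosphorylation (median −0.21), 65 of the mitochondrial ribosome (−0.11), 52 of ribosome biogenesis (−0.22), 25 of the TCA cycle (−0.16) and 17 of m6A writers, erasers and readers (−0.07). Of 43 proteasome genes 2 were higher, the immunoproteasome subunits Psmb8 (1.56 and 82.6, 53.1-fold higher, interval 14.0 to 449.5) and Psmb9 (24.1 and 57.7), and 0 lower (median −0.23). Of 57 genes of replication and the cell cycle 6 were higher, a share near the 10.9% of all genes, and 1 lower (median −0.08). Inhibitors of the cycle were among the higher, Cdkn1c (8.56 and 39.0), Cdkn2b (43.6 and 104) and Rb1 (324 and 661), but so was Mki67, a marker of dividing cells (803 and 2308, 2.87-fold higher, interval 2.65 to 3.11). Of 48 chromatin regulators 2 were higher, among them Phf19, a Polycomb partner (37.4 and 606, 16.2-fold higher, interval 12 to 22.4), and 3 lower, among them Smarcd3 of the SWI/SNF complex (127 and 20.3). Splicing factors and RNA-binding proteins had 3 on each side of 46, with Rbfox2 at 75.5 and 6.23 (12.1-fold lower, interval 4.58 to 45.3).

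Values of ribosomal protein genes rest on few countable positions. Of 53 that passed 0 were higher and 13 lower, with a median of −0.44, but these genes have many pseudogenes. Reads without a unique place are kept apart in the table, and how much each gene lost by that was not tested. For the 13 lower genes the copied share of windows ran from 79.0% for Rplp0 to 100% for 11 of them, and in the KO pair 0 of the 53 were lower and 20 higher. Rpl5 stood at 316 and 24.9 in WT and 99.2 and 472 in KO, with every window copied. Of the 53, 1 had under 10% of its windows copied. Reads without a unique place made up 55.7% of the WT ESC table and 51.7% of the WT EB table.

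Imprinted genes had 7 higher and 2 lower of 18 (median 0.44). Paternally expressed genes lay on both sides: Peg3, a zinc finger protein (754 and 5029, 6.67-fold higher, interval 6.20 to 7.17), Peg10, a domesticated retroelement of placenta (922 and 5439, 5.90-fold higher, interval 5.52 to 6.30), Usp29 (16.3 and 157) and Igf2 were higher, and Plagl1 (1033 and 73.3, 14.1-fold lower, interval 10.5 to 19.3) and Peg12 (127 and 10.9, 11.6-fold lower, interval 5.52 to 29.4) lower. Maternally expressed Cdkn1c and Ascl2 (24.9 and 70.1) were higher. Interferon and RNA-sensing genes had 7 higher and 3 lower of 21 (median 0.05), with antigen presentation on the upper side, Psmb8, Tap2 (24.1 and 65.5) and B2m (418 and 985), and Oas1a (248 and 32.7, 54.8% copied), Oasl1 (52.9 and 18.7) and Ifi35 (83.3 and 23.4) on the lower.

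By level per kb of coding sequence, the tops of the 2 libraries shared 6 of 10 genes. In ESCs the 10 highest named genes included Cmss1, the histones H2bc18 and H1f1, the tubulin Tubb5, Mt2, the chaperone Hsp90ab1, Cdk8, Rpl8 and the ribosomal scaffold Rack1. Cmss1 had 13096 and 11517 per kb in ESCs and EBs. Cdk8, with 55.4% of windows copied, had 10429 and 12951 per kb. In EBs H1f1, Hsp90ab1 and Rack1 were no longer among the 10, and Apoe (7549.7 and 13577 per kb), the glucose transporter Slc2a3 (8802 and 10045 per kb), the protease Ctsl (4006 and 9588 per kb) and Sparc (5815 and 9555 per kb) were. Each of these 4 is a secreted, lysosomal or surface protein. Afp reached 4751 per kb in EBs, Spink1 4149.7, Car4 4097 and Ttr 3629.6, below Apoe's 13577, whereas the factors Gata4 and Foxa2 had 918 and 364.

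Runs of neighbouring genes with large folds were few. Runs of at least 3 genes that were at least 4-fold higher, or at least 4-fold lower, with gaps of at most 100 kb, were found at 3 places. On chromosome 7, from 139894696 to 139995207, Kndc1 (19.5 and 173), Utf1, Spef1l (5.45 and 26.5) and Adam8 (7.005 and 37.4) were all higher. On chromosome 8, from 11198423 to 11478640, Col4a1, Col4a2 and Rab20, a small GTPase (9.34 and 175, 18.7-fold higher, interval 10.3 to 37.3), were higher. On chromosome 9, from 44969572 to 45009663, the T-cell receptor subunits Cd3g (78.6 and 3.12), Cd3d (73.2 and 4.68) and Cd3e (71.6 and 9.35) were lower, on an ESC level of at most 78.6 each. In each run every gene compared within the span took part.

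The Mettl3-KO pair gives the same change of culture in libraries separate from the WT pair, so genotype and library cannot be told apart, and no difference between pairs can be tested. Mettl3, the targeted gene, stood at 563 and 429 in WT ESCs and EBs and at 298 and 327 in the KO libraries, and a sum over the whole coding sequence does not show whether a part of it is deleted. In the KO pair 830 genes were at least 2-fold higher (8.96%) and 614 lower (6.63%). Of the 1006 genes higher in the WT pair 401 were higher in the KO pair as well, which is 39.9% of the WT and 48.3% of the KO set; 572 lay within 2-fold and 33 were lower. Of the 720 lower genes 186 were lower in both, 25.8% of the WT and 30.3% of the KO set, and 52 were higher in KO. Of 125 genes at least 16-fold higher in WT 85 were at least 2-fold higher in KO, but 16 reached 16-fold, and 4 were at least 2-fold lower. Of 27 at least 16-fold lower 21 were also at least 2-fold lower in KO, but 0 reached 16-fold, and 2 were at least 2-fold higher. Both sets were chosen by the WT fold alone, which favours smaller folds in the KO pair.

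For the leading endoderm genes the KO folds were of the same direction and smaller. These genes were chosen by their WT folds, and that choice by itself favours smaller folds in the other pair. Apob stood at 17.6 and 361 in KO ESCs and EBs, a log2 fold of 4.28 beside 9.38 in WT. Cubn stood at 3.20 and 331 (6.31 beside 8.62), Afp at 6.93 and 328 (5.38 beside 8.84) and Ttr at 2.13 and 26.9 (3.15 beside 10.66). Their ESC values were at most 39.7 in both genotypes, and their EB values were lower in KO. ESC values differed as well: in WT ESCs Cubn and Afp stood at 39.7 and 17.9, above KO ESCs. Apob and Ttr, at 17.1 and 0 in WT ESCs, lay slightly below KO ESCs. Others stayed within 2-fold or near 0 in the KO pair: Hnf4a stood at 61.3 and 67.2 (0.13 beside 5.79), Muc13 at 17.1 and 11.9 (−0.48 beside 7.43) and Spp2 at 0 in both KO libraries. Over lists, endoderm factors had a KO median of 0.68 beside 4.63, plasma carriers 1.73 beside 3.27, naive genes −0.15 beside −0.77 and the ATF4 list 0.14 beside −0.71. Interstitial matrix had 1.52 beside 1.51 and formative genes 1.13 beside −0.39. The share of reads on proteins with an N-terminal stretch alone went from 4.65% to 6.72% in KO, beside 4.57% and 6.41% in WT.

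**Figure D5:**
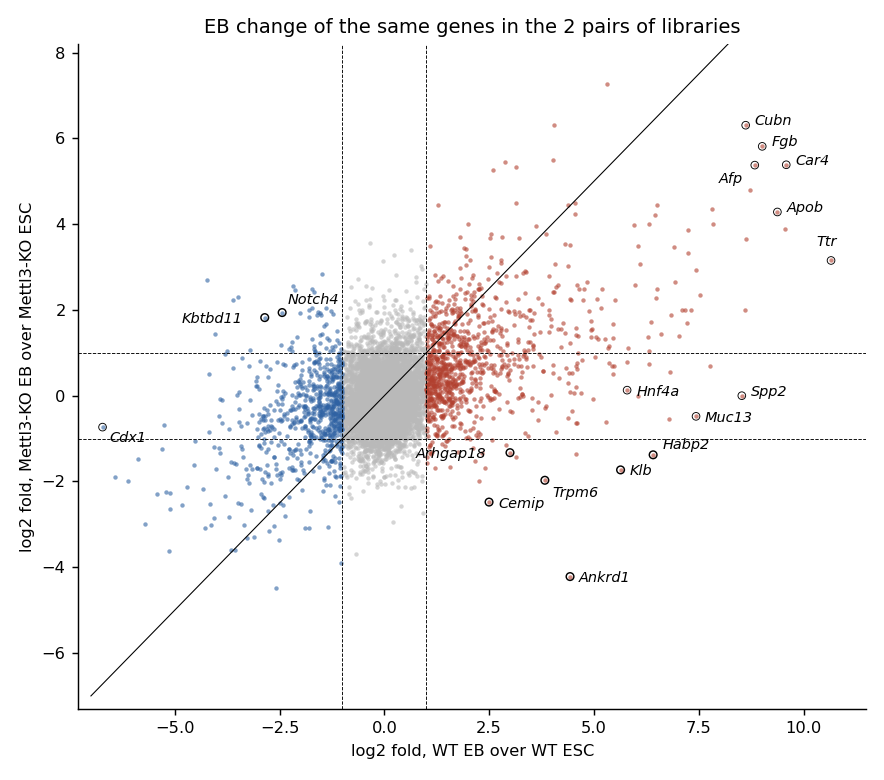
Log2 fold of EB over ESC in the WT pair (x axis) and in the Mettl3-KO pair (y axis), 1 point per gene, coloured by the WT call (red at least 2-fold higher, blue lower); dashed lines mark 2-fold and the solid line equal folds. Leading genes such as Cubn (8.62 and 6.31) and Ttr (10.66 and 3.15) lie below the solid line, a place that their choice by WT fold favours. Klb and Ankrd1 lie in the lower right, higher in WT EBs and lower in KO EBs.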

How the data were processed

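Ribosome footprints of 4 libraries (WT and Mettl3-KO ESCs and EBs, 1 each) were used as the authors deposited them: per the submitters' processing notes, with CASAVA 1.8.2, Bowtie, TopHat2 2.0.10, HTSeq 0.6.0, DESeq and mm10, of which the roles are not stated, and the strand setting and annotation release are unknown here. The deposited signal is the number of reads per RefSeq coding sequence divided by a size factor per library, per the values themselves: all of them were whole reads (100% within 0.01 of a whole number). The table holds 27442 coding sequences, of which 27083 matched a mouse symbol in the RefSeq table for GRCm38.p6, and 5 summary entries, which were left out. In WT ESCs and WT EBs, genes held 27.9% and 31.3% of the reads in the table, reads without a unique place 55.7% and 51.7%, ambiguous reads 8.71% and 9.74% and reads outside features 7.70% and 7.25%.

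Values of a symbol were summed. Autosomal genes whose mean over the 4 libraries reached 25 were compared as log2 of the values plus a pseudocount of 1. Counting intervals of a ratio are exact (Clopper-Pearson) binomial intervals at 95%, and a fold against 0 is a bound from 3 reads in that library. A copied window is a stretch of 28 bases of a coding sequence found elsewhere in the genome. The recovered counts were tested for stage over both genotypes, with genotype as a term, by edgeR 4.0.16 and, as an alternative, DESeq2 1.42.0 in R 4.3.3; other steps used Python 3.11.15, numpy 2.4.6, pandas 2.3.3 and scipy 1.17.1. RefSeq supplied names, positions and promoters, all in GRCm38.p6.

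The genes compared and the 61 gene lists were chosen with earlier results of these data known. Named genes are those with a symbol other than an unnamed model and at least 100 in either WT library that have the 20 highest and 20 lowest log2 folds, the 10 with the highest level per kb in each WT library, and list members past 2-fold. Pluripotency factors within 2-fold, genes without a read and members of gene runs were named after their values were seen. A few genes that this rule names are not reported here. With 1 library in each group nothing measures the spread between cultures.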

Additional observations from a re-analysis of the deposited data

Results flagged for a closer look

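For the genes below the EB change of the WT pair lay in the direction opposite to that of the Mettl3-KO pair, with at least 2-fold on each side, a log2 distance of at least 4 between the pairs, under 10% of windows copied and at least 100 in either WT library. The difference was not tested, since each pair has 1 library per stage, and genotype and library cannot be told apart. Of 38 genes with opposite calls and at least 100 in either WT library, 28 had under 10% of windows copied, and 6 had every window copied.

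Some were higher in WT EBs and lower in KO EBs. Ankrd1, a target of YAP, had log2 folds of 4.43 in WT and −4.22 in KO, a distance of 8.65, on values of 7.005 and 171 in WT and 17.6 and 0 in KO. Habp2, a plasma protease, had 6.41 and −1.38, a distance of 7.79; its KO values of 1.6 and 0 are at or under the floor of 3 reads, so its KO direction cannot be read. Klb, the co-receptor of FGF19-type hormones, had 5.63 and −1.73, a distance of 7.37, on 17.1 and 899 in WT and 136 and 40.3 in KO. In these genes the WT EB library holds the high value.

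Trpm6, a magnesium channel, had 3.83 and −1.97, a distance of 5.80, and its KO ESC value (132) was near its WT EB value (190.1). Cemip, a hyaluronan-degrading protein, had 2.497 and −2.48, a distance of 4.98. Arhgap18, a GTPase-activating protein, had 3.00 and −1.33, a distance of 4.33 (4.325 before rounding). Lower in WT EBs and higher in KO EBs were Kbtbd11, with −2.85 and 1.82, a distance of −4.67 (−4.675 before rounding), and the receptor Notch4, with −2.44 and 1.94, a distance of −4.38.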

How the results depend on the processing

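No test of the WT pair alone was possible, because each group has 1 library. The count model takes genotype as a term, so it sets EBs against ESCs within each genotype. The 1006 higher and 720 lower genes came to 538 and 362 with a mean of at least 100, to 2082 and 1652 without a filter, and to 654 and 366 when the counting interval had to lie past 2-fold. The count model over both genotypes called 19 and 2 with edgeR and 254 and 90 with DESeq2. Pseudocounts of 0.5 and 5, a mean of at least 10, other scalings, 1 entry per gene and all chromosomes gave 945 to 1298 higher and 668 to 988 lower genes. Among genes with under 10% of windows copied, an alternative chosen after seeing the data, 961 were higher and 619 lower. Genes higher in both genotypes numbered 367 to 403 beside 401, and lower in both 161 to 184 beside 186, under the alternatives added after seeing the data, which also include DESeq2 for the count model.

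The share of footprints on proteins with an N-terminal stretch alone was 4.59% in WT ESCs with genes of 1 entry, and 4.98% in WT ESCs and 6.55% in WT EBs with values per kb. Of 183 recomputed list medians 169 stayed within 0.25 and 14 did not, of which 12 were under the mean of at least 100 and 2 under a pseudocount of 5. Under the former the median of mesoderm genes went from −0.22 to 2.67 and that of xenobiotic genes from 0.56 to −0.22, since fewer members passed. All 216 recomputed folds of the 54 leading genes kept their direction and their side of 2-fold. Depth limits the low values: 1 read is worth 0.778 in WT ESCs and 1.56 in WT EBs, and a fold over fewer than about 10 reads is known only within its wide counting interval.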
